A study of Mus musculus with 2 samples.

Results

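Retained-intron transcripts are annotated RNAs of a gene that keep intronic sequence which its spliced messenger RNA lacks, and they are described here in total RNA of the mouse adrenal gland. A member is any transcript whose biotype in GENCODE M21 is retained_intron. There were 21848 of them among the 141767 annotated transcripts of both transcript tables, spread over 9421 of 55450 genes, of which 9119 were protein-coding. The tissue came from male B6CASTF1/J mice aged 36 days, the F1 hybrid of C57BL/6J and CAST/EiJ. Both libraries were directional, depleted of ribosomal RNA, made from 300 ng of RNA and given ERCC spike-in RNA. They form 1 group of 2 biological replicates, so a difference between them compares 2 libraries and not conditions, and no test was possible. The labels conflict on whether the libraries came from different males, so the spread between them may be technical. The values describe whole tissue, in which fewer cells of a type and less RNA per cell cannot be told apart.

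Each library has an est_counts table, which the authors made from the reads, and an expected_count table, which they made from an alignment to the transcriptome. Both give TPM, a transcript's abundance per length scaled to a fixed sum. The share of a gene is the summed TPM of its retained-intron transcripts as a percentage of the TPM of all its transcripts. The transcript counts summed to 35062187 and 27747343 in replicates 1 and 2 of the est_counts table, and to 35506452 and 30164127 in the expected_count table. Members took 984213 and 938233 of the first and 847013 and 823234 of the second. The markers of the adrenal cortex (6 of 6) and of chromaffin cells (5 of 5) reached 1 TPM in both libraries. Pancreas markers stood apart: 0 of 5 reached 1 TPM in replicate 1 and 5 of 5 in replicate 2, with summed levels of 0.383 and 13276 TPM. The 2 liver markers reached 1 TPM in both libraries and were also higher in replicate 2, with 17.5 and 178 TPM. The 3 fat markers stood at 1389.7 and 1652 TPM, so whole tissue here includes RNA of other tissues (est_counts table). Without the genes that exceeded replicate 1 by 32-fold or more in replicate 2, there were 177 genes past the 50% threshold used below, as with them. The summed share was then 13.9%, against 13.8% with them (mean of both libraries). Genes needed at least 10 TPM in both libraries to be counted, and of 11 listed pancreas genes only Cela1 was. These values therefore say little about the part of pancreas RNA.

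Introns are cut out of a new transcript by the spliceosome, which reads short signals at both intron ends. A transcript that keeps an intron often stays in the nucleus or is degraded, and total RNA holds such molecules beside the finished messenger RNA. Many genes of the splicing machinery, such as the CLK kinases that phosphorylate SR proteins, are known to keep particular introns in a large part of their RNA and to remove them later.

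The label was checked against the gene models. Only 7015 members (32.1%) contained a complete intron, of at least 50 bases, of another transcript of their gene. A further 7400 (33.9%) had only their 3′ end inside an intron and 5220 (23.9%) only their 5′ end. Both ends lay inside introns in 1950 (8.93%), and 263 (1.20%) fit none of these. The classes exclude each other, and members with a complete intron were classed first. A share thus counts transcripts that end or start within an intron as well as those that span it. Members were short, with a median of 881 bases against 1816 for protein-coding transcripts.

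The introns that members hold whole are short as well. The 10216 distinct held introns had a median length of 290.0 bases, against 1541 for the introns of the same genes that no member holds. Of the held introns 51.0% were under 300 bases, against 16.1% of the others. Of all introns of these genes 6.47% were held. Canonical GT and AG ends closed 97.9% of the held introns, GC and AG ends 1.42%, and the AT and AC ends typical of a rare intron class 0.117%. Their median GC content was 51.0%. In the longest coding model of genes with at least 3 introns, 5.90% of first, 6.14% of inner and 5.01% of last introns were held. Among introns under 300 bases those shares were 24.8%, 16.1% and 13.3%, so a short first intron was held more often than a short last intron.

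Held introns of genes that carried large shares in both tables and both libraries show the range, from an AT-rich intron of Ncl, which encodes the nucleolar protein nucleolin, to a GC-rich intron of Mrps24, a subunit of the mitochondrial ribosome. Rps20 encodes a protein of the small ribosomal subunit. The sequences are of the reference strain (GENCODE M21, mm10), read 5′ to 3′ along the RNA, with the first and last pair of bases in capitals, where the splice sites lie.
Rps20, intron of 182 bases at chr4:3835010-3835191, minus strand: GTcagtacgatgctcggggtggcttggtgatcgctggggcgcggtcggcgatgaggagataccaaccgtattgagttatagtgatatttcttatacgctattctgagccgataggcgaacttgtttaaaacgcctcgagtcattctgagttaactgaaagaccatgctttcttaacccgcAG
Ncl, intron of 190 bases at chr1:86352320-86352509, minus strand: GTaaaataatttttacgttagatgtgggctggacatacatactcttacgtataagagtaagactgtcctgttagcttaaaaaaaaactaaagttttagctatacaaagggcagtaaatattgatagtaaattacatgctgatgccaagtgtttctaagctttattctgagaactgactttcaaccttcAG
Mrps24, intron of 68 bases at chr11:5707556-5707623, minus strand: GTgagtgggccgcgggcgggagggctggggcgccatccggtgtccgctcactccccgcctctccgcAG
GC content was 48.9% in the intron of Rps20, 32.6% in that of Ncl and 77.9% in that of Mrps24. The exons of Rps20-202, the member that holds the first intron, also contain the annotated snoRNA gene Gm24016.

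The next introns belong to kinases that act on splicing factors. Clk1-204 holds an intron of 87 bases and, further upstream, both introns that flank an exon of 91 bases (387 and 871 bases long). Clk4-213 likewise holds both introns that flank an exon of 91 bases (1055 and 391 bases). Further downstream it holds both introns around an exon of 95 bases, which are shown. In replicates 1 and 2 of the est_counts table Clk4-213 stood at 5.96 and 5.46 TPM. All members of Clk4 together stood at 31.5 and 30.9 TPM, so most of this level lay on other members. The member of highest mean TPM, Clk4-207, stood at 15.6 and 9.75 TPM. Its 3′ end lies inside an intron and it holds no complete intron.
Clk1, intron of 87 bases at chr1:58417180-58417266, minus strand: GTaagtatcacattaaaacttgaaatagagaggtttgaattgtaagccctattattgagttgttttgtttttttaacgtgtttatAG
Clk4, intron of 191 bases at chr11:51275579-51275769, plus strand: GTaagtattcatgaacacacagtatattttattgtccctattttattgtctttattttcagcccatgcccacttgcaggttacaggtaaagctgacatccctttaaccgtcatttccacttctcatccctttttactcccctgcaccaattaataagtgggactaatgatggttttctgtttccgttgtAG
Clk4, intron of 253 bases at chr11:51275865-51276117, plus strand: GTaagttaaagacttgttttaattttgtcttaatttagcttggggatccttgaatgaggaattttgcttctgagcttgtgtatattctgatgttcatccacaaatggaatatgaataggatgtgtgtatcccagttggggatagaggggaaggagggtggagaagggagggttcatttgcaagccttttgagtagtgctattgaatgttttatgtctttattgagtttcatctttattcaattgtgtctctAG
The Clk1 intron had 27.6% GC and the Clk4 introns 38.7% and 37.2%.

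The last intron comes from a gene on which the tables disagree, described further on: Cox6a1, a subunit of cytochrome c oxidase.
Cox6a1, intron of 131 bases at chr5:115348708-115348838, minus strand: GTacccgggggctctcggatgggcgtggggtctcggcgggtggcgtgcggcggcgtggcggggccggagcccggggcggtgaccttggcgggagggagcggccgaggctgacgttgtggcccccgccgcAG
This intron had 80.2% GC, above the median of held introns.

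Of the 7959 genes with a gene TPM of at least 10 in both libraries of the est_counts table, 5113 carried a retained-intron transcript, with 13766 members in all. Just inside this threshold lay Wdr3 with 11.8 and 10 TPM, and just outside it Polr3a with 9.99 and 11.1 TPM. Members took 13.2% of the TPM of the 5113 genes in replicate 1 and 14.4% in replicate 2. In the expected_count table they took 10.9% and 12.4%. Of the counts of these genes, they took 5.98% and 7.19%, and 5.61% and 6.83% in the expected_count table (counts are not corrected for length). The median gene had a share of 8.29% and 10.7%, and 7.99% and 10.8% in the expected_count table. Of all 21848 members, 13517 had counts above 0 in both libraries of both tables and 1917 had 0 counts in all 4.

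**Figure D1:**
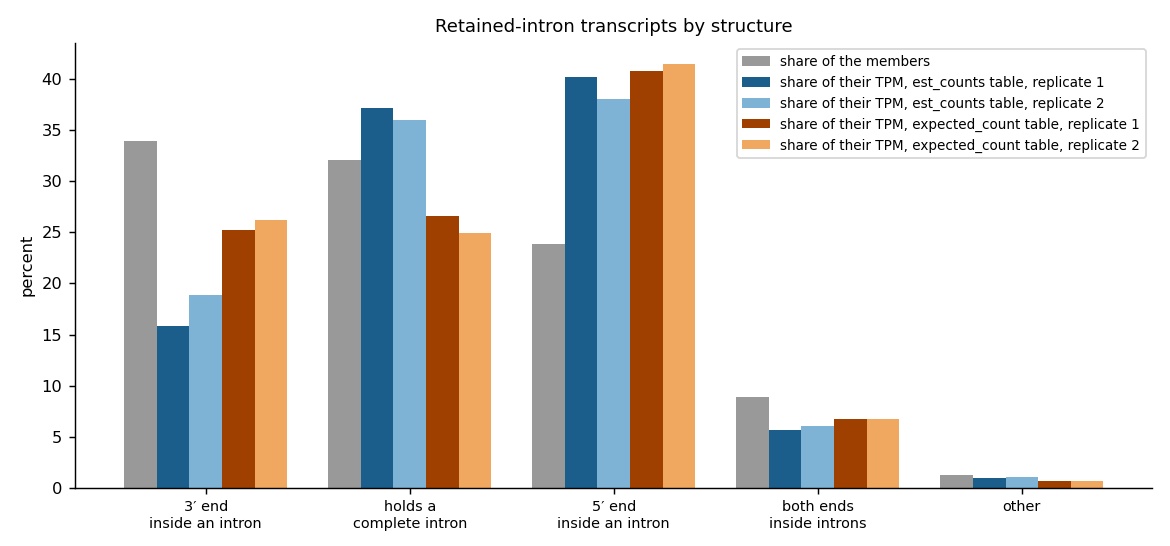
Retained-intron transcripts by structure. For each class, the grey bar gives its percentage of the 21848 members and the coloured bars its percentage of their summed TPM in each table and replicate. Members with only their 5′ end inside an intron, and no complete intron, are 23.9% of members and 38.1% to 41.5% of TPM.

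By level, members with only their 5′ end inside an intron led. They had 40.2% and 38.1% of all retained-intron TPM in the est_counts table and 40.8% and 41.5% in the expected_count table. Members with a complete intron took 37.2% and 36.0%, but 26.6% and 24.9% in the expected_count table. Members with only their 3′ end inside an intron were the most numerous class and took 15.8% and 18.9%, and 25.2% and 26.2%. The 204 members whose exons contain a small RNA gene, in 125 genes, held 3.18% and 2.59% of the retained-intron TPM, and 1.82% and 1.28%.

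In 177 genes, members held 50% or more of the gene's TPM in both libraries of the est_counts table (3.46% of the 5113). The expected_count table gave 156 such genes (3.05%), and 87 genes passed in both tables and libraries (1.70%). Of the 177 genes, 68 overlap no other annotated gene. The percentage for all 5113 genes is not given here, so no link between overlap and share can be read from this. Those 87 genes had named leaders by level. Rps20 had shares of 99.5% and 99.6% in replicates 1 and 2, and of 96.9% and 96.9% in the expected_count table. Rps16, another small-subunit protein, had 83.5% and 82.9%, and 98.1% and 97.9%. Chchd10, a mitochondrial protein of the intermembrane space, had 53.5% and 53.0%, and 61.3% and 59.6%. Ctsb, the lysosomal protease cathepsin B, had 64.2% and 63.5%, and 61.6% and 62.0%. In each of these 4 genes the libraries lay closer together than the tables did. As shares of counts in the est_counts table, which are not corrected for length, Rps20 had 93.6%, Rps16 55.3% and Chchd10 17.2% (means of both libraries). Chchd10 thus lay below 50% by counts.

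Further genes of the 87 serve mitochondria, transcription and RNA processing. Ndufab1, the acyl carrier protein of the mitochondrion, had shares of 81.5% and 82.5%, and of 69.6% and 72.0% in the expected_count table. Taf10, a subunit of the general transcription factor TFIID, had 96.8% and 97.4%, and 95.8% and 96.9%. Mrps26, of the small mitochondrial ribosomal subunit, had 95.4% and 96.0%, and 95.3% and 96.6%. Ncl had 66.6% and 66.2%, and 85.2% and 87.5%. Rbm8a, a core protein of the exon junction complex, had 84.4% and 89.0%, and 66.9% and 72.5%. Taf10 and Mrps26 differed by under 2 points between tables and Rbm8a by more than 15.

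These 87 genes differ from the carriers as a whole, which include them, in the length of their gene models. In 36 of the 82 genes with a coding model (43.9%), even the shortest coding model was at least 2 times as long as the leading retained-intron transcript, against 21.8% of the 5088 of all carriers with one. Rps20 has a single coding model of 3706 bases, at 2.90 and 2.35 TPM in the est_counts table. Beside it Rps20-202 of 512 bases stood at 329 and 249 TPM and Rps20-201 of 582 bases at 294 and 281 TPM. In the expected_count table Rps20-202, which holds the intron shown above, stood at 45.7 and 10.7 TPM. Rps20-201, which holds another intron, stood at 143 and 114 TPM there. Taf10-203, the coding model of Taf10, is 4281 bases long. It stood at 4.36 and 3.15 TPM in the est_counts table, while Taf10-202 of 601 bases stood at 93.2 and 83.3 TPM. The coding model of Mrps26 is 4278 bases long, against 1057 for its member. The leading member had only its 5′ end inside an intron in 47 of the 87 genes (54.0%), against 25.9% of all carriers. It contained a complete intron in 26 (29.9%), against 30.6%. The part of the gene models in these shares was not tested.

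**Figure D2:**
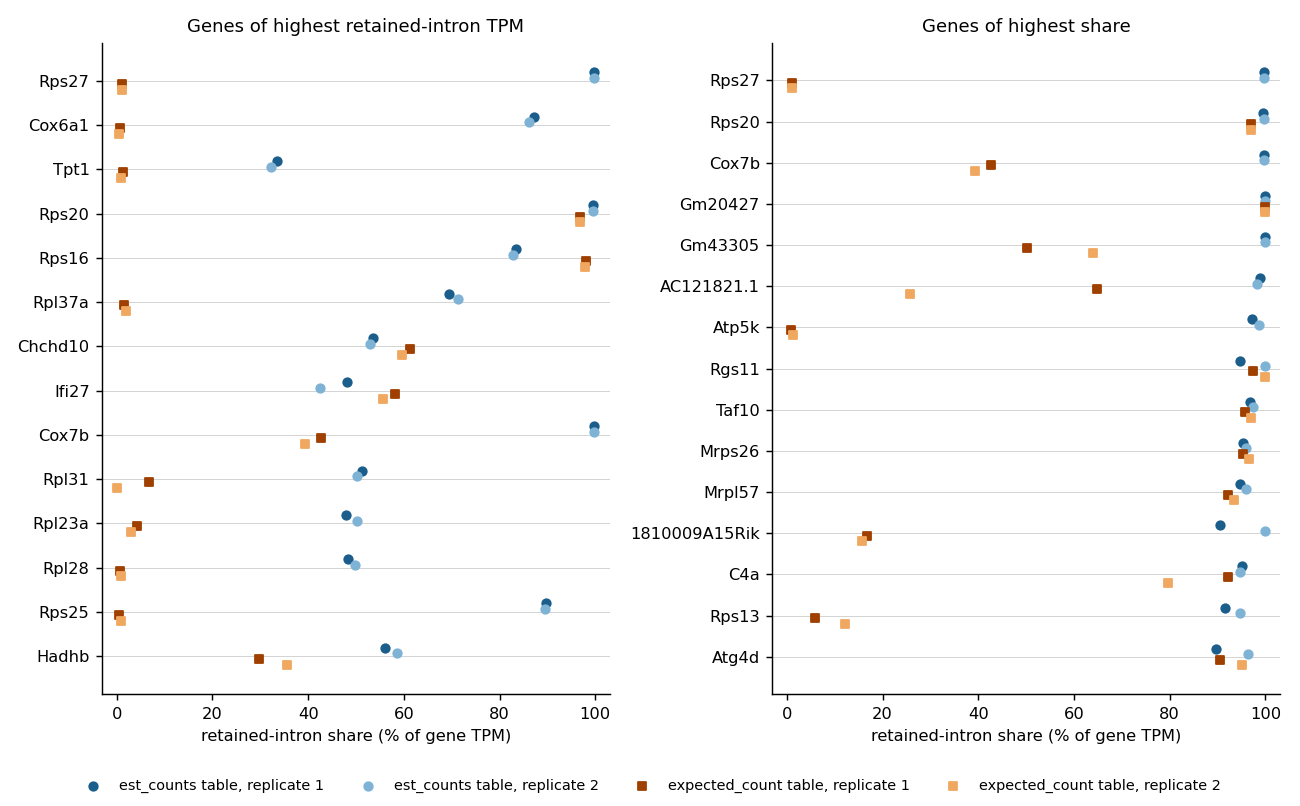
Retained-intron share of named genes. The left panel shows genes of highest mean retained-intron TPM and the right panel genes of highest mean share, both ranked in the est_counts table; points give the share in each table and replicate as a percentage of gene TPM. Rps20, Taf10 and Mrps26 stay above 95% in all 4, while Rps27 lies at 99.8% in the est_counts table and near 1% in the expected_count table.

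The retained-intron TPM was spread unevenly over the carrier genes, and the spread of their total TPM was not compared. The first 15 genes held 16.2% of it in the est_counts table and 13.1% in the expected_count table, and 4 genes were in both sets of 15: Rps20, Rps16, Chchd10 and Ifi27, an interferon-induced gene. The first 50% of the retained-intron TPM lay in 202 genes, or 348 in the expected_count table. Ribosomal protein genes filled much of the est_counts ranking, among them Rps27, Rps20, Rps16, Rpl37a, Rpl31, Rpl23a, Rpl28 and Rps25. Ribosomal protein genes have many near-identical pseudogenes in the genome, so their values are uncertain where reads could be split.

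For several of these genes the tables gave opposite pictures. Rps27, a protein of the small ribosomal subunit (chr3:90212522-90213651, minus strand, mm10), had a retained-intron share of 99.8% in both replicates of the est_counts table and of 1.03% and 1.18% in the expected_count table. Its coding transcript Rps27-201 was listed at 0 TPM in both replicates of the first and at 561 and 351 TPM in the second. Of its members, Rps27-209 stood at 658 and 215 TPM and Rps27-205 at 258 and 589.8 TPM in the est_counts table, so the libraries reversed the order of the pair, while the members together stood at 932 and 814 TPM. Cox6a1-202, with the intron of 131 bases shown above, stood at 781 and 912 TPM in the est_counts table and at 2.69 and 2.09 TPM in the expected_count table. There the authors' own intervals ran from 1.38 to 4.61 and from 0.939 to 3.82 TPM. The share of Cox6a1 was 87.2% and 86.1%, against 0.628% and 0.542%. In these genes the 2 libraries gave nearly the same share within a table, and the choice of table moved it by more than 80 points.

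Shares as far apart between the tables were found for Rps25 (89.7% and 89.4%, against 0.426% and 0.832%), for Atp5k, a subunit of ATP synthase (97.2% and 98.7%, against 0.906% and 1.36%), and for Rps13 (91.5% and 94.6%, against 5.91% and 12.1%). Cycs, cytochrome c, had 91.4% and 93.1%, against 8.77% and 14.5%. Ndufc1, a subunit of respiratory complex I, went the other way and was listed at 0% in both replicates of the est_counts table and at 60.0% and 58.9% in the expected_count table. Ndufc1 was named after its values were seen.

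Over all 5112 genes that could be compared, the tables differed by a median of 2.61 points, and the libraries by a median of 2.68 points within the est_counts table and 2.74 within the expected_count table. Across genes, Spearman's rho was 0.911 and 0.909 between the libraries and 0.751 and 0.752 between the tables, with Pearson's r of 0.936 and 0.935 against 0.724 and 0.731. These values describe genes that share libraries and gene models, and genes are not independent replicates. A difference of 30 points or more between tables was found in 156 genes, 100 of them higher in the est_counts table and 56 higher in the expected_count table. It was found in 32.5% of the 40 genes whose longest coding model is under 600 bases, in 10.8% from 600 bases, 4.31% from 1200, 2.41% from 2000 and 0.997% from 4000 bases on. Each longer class held a smaller percentage of such genes.

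**Figure D3:**
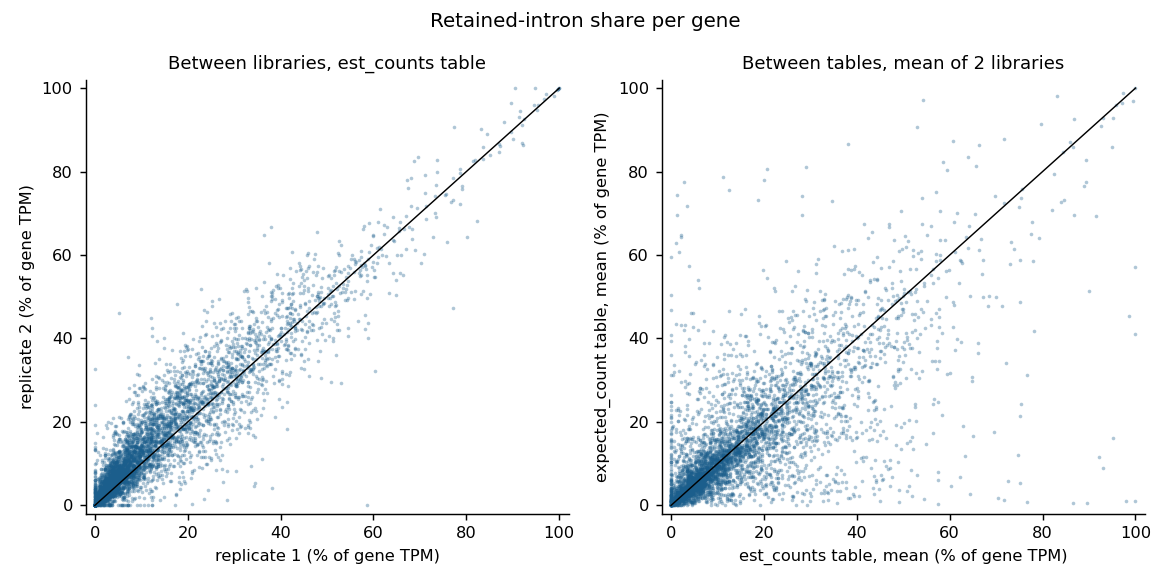
Retained-intron share of the 5113 genes, each point a gene, in percent of gene TPM, with the line of equality. The left panel sets replicate 2 against replicate 1 in the est_counts table and the right panel sets the means of the 2 tables against each other; points scatter more widely between tables (Spearman's rho 0.751 and 0.752 in replicates 1 and 2) than between libraries (0.911).

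**Figure D4:**
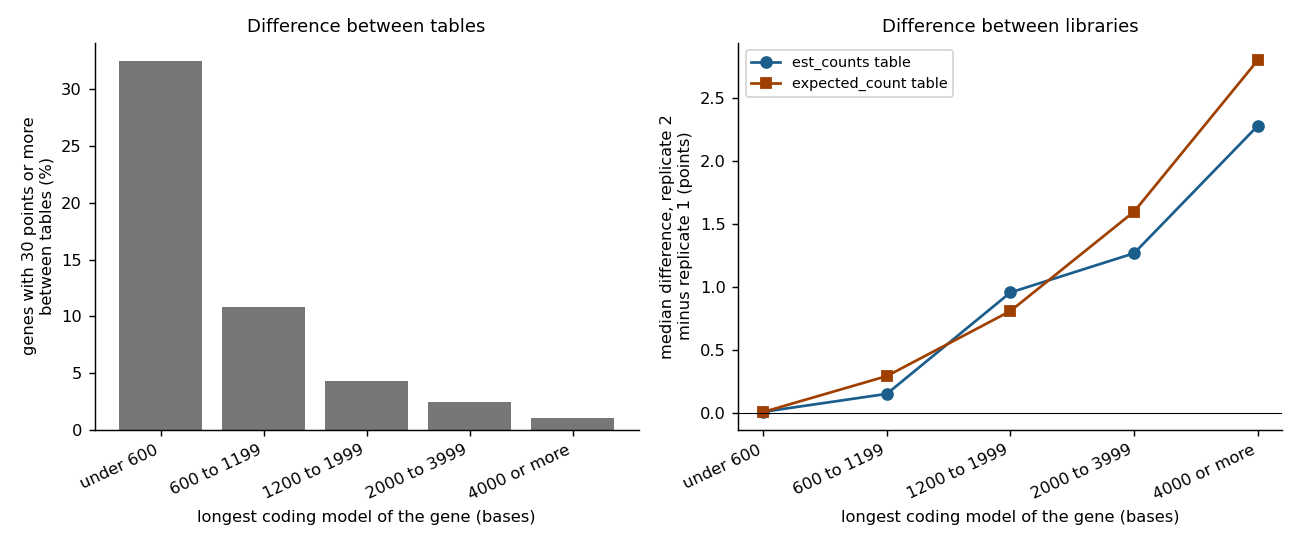
Differences in share by length of the gene's longest coding model, in bases. The left panel gives the percentage of genes with 30 points or more between tables, from 32.5% under 600 bases to 0.997% from 4000 bases on, and the right panel the median of replicate 2 minus replicate 1 in points, which reaches 2.28 and 2.80 in the longest genes.

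Replicate 2 carried the higher shares. Of the shares of the est_counts table, 3528 were above those of the other library in replicate 2, 1443 in replicate 1 and 142 were equal, with a median difference of 1.48 points. The expected_count table gave 3704 and 1369 genes and 1.75 points, and in both tables together 3042 and 852 genes agreed in direction. A difference of 10 points or more was found in 512 genes of the est_counts table (10%), with the larger share in replicate 2 for 374 (7.31%) and in replicate 1 for 138 (2.70%). The expected_count table gave 515 genes (10.1%), 421 (8.24%) and 94 (1.84%). As a background, the share of a gene's most abundant transcript differed by that much in 19.8% of all genes with several transcripts, and in 18.1% in the expected_count table. The retained-intron differences of that size ran mostly in 1 direction, towards replicate 2. The median difference was 0.0125 and 0.0111 points where the longest coding model was under 600 bases and 2.28 and 2.80 points from 4000 bases on. Processed transcripts, another class without a coding frame, leaned the same way, with medians of 5.13% and 7.03% in replicates 1 and 2 of the est_counts table over 3919 genes. Of these, 1878 were higher in replicate 2 and 1262 in replicate 1, against 2077 and 1219 in the expected_count table. Their median difference was 0 points, and 0.222 in the expected_count table. Nonsense-mediated-decay transcripts had a median difference of 0 in both tables, with medians of 5.48% and 6.25% in replicates 1 and 2 of the est_counts table. Whether the classes differ in this was not tested.

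Single transcripts gave the same direction when TPM was rescaled over nuclear protein-coding genes. Of the 11257 members with a mean of at least 1 TPM, 3331 differed 2-fold or more on the scale of TPM plus 0.1 (29.6%), 2399 upwards in replicate 2 (21.3%) and 932 downwards (8.28%). Among all transcripts 25.6% differed that much, 16.7% and 8.92% by direction, and among protein-coding transcripts 20%, 11.2% and 8.80%. By the expected_count values, 3358 of 11741 members differed that much (28.6%), 21% upwards and 7.61% downwards in replicate 2. The same values were 25.8%, 16.7% and 9.11% for all transcripts of that table and 20.9%, 11.9% and 8.92% for its protein-coding transcripts. The median log2 ratio of replicate 2 over replicate 1 was 0.34 for members, 0.12 for all transcripts and -0.00 for protein-coding transcripts. With TPM as deposited, 1351 of 8066 members had a 2-fold ratio upwards and 648 downwards in the est_counts table. Among all 40500 transcripts compared there, 5065 went upwards and 3238 downwards. By the expected_count values, 198 of 3984 members went upwards and 570 downwards, against 955 and 3645 of all 26621 transcripts. Of the members past 2-fold, 67.6% and 25.8% went upwards in the 2 tables, against 61.0% and 20.8% for all transcripts. The reversal in the expected_count table was thus shared by all transcripts. There the median was -0.29 for members and -0.45 for all transcripts, so the direction depends on the scaling, while the position of members above all transcripts does not. Pancreas and liver markers, described above, also differed between the libraries, and the part of such RNA in these ratios was not tested.

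In both tables, 154 of the 5113 genes had a share 10 points or more above replicate 1 in replicate 2, and 24 had one as far below. A background over both tables together is not given here. Within single tables, the share of the most abundant transcript differed that much, in either direction, in 19.8% and 18.1% of genes with several transcripts. Those with the highest retained-intron TPM among the 154 included Rsrp1, an arginine- and serine-rich protein, with 29.9% and 40.0% (39.3% and 52.1% in the expected_count table). Anp32a, a histone-binding phosphoprotein, had 19.4% and 35.7%, and 8.94% and 35.3%. Clk1 had 38.1% and 51.0%, and 31.6% and 53.1%. Among the 24, Supt5, a transcription elongation factor, had 19.4% and 5.28%, and 28.4% and 9.89%. C4b, a complement component with the close relative C4a, had 82.3% and 68.2%, and 79.2% and 68.3%, and reads of such copies could be split. Some of the largest differences in the est_counts table rested on few counts. Members of Med6, a Mediator subunit, had 4.05 and 29.9 counts and shares of 5.12% and 46.0%, against 10.3% and 12.3% in the expected_count table. Tspan17, a membrane tetraspanin, had 9.35 and 31.2 counts, and its shares of 17.6% and 48.2% recurred as 11.7% and 45.6% in the expected_count table.

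The kinases that phosphorylate splicing factors carried some of the highest shares of the lists examined. Of the 7 CLK, DYRK and SRPK genes with a member and enough expression, 5 exceeded 20% in both libraries of both tables, against 726 of all 5113 genes (14.2%). The list median was 28.8% and 25.6%, and 35.4% and 41.1% in the expected_count table, against 8.29% and 10.7%, and 7.99% and 10.8%, for all genes. Clk4 had 52.0% and 57.1%, and 53.4% and 53.3%. Clk2 had 39.5% and 35.9%, and 44.8% and 41.1%, and Clk3 had 27.6% and 25.6%, and 43.9% and 47.5%. Srpk1, an SR protein kinase, had 28.8% and 23.1%, and 35.4% and 40.1%. Dyrk1a with 1.97% to 3.10% and Srpk2 with 3.64% to 8.62% were the exceptions. Clk1-204, whose intron is shown above, had 948 and 631 counts and 13.3 and 10.8 TPM, while the coding transcript Clk1-201 had 32.5 and 8.26 TPM. In the expected_count table Clk1-204 stood at 7.06 and 3.77 TPM and Clk1-201 at 17.6 and 3.13 TPM. The coding transcript Clk1-201 thus differed by a larger factor between the libraries than Clk1-204 did, in both tables.

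**Figure D5:**
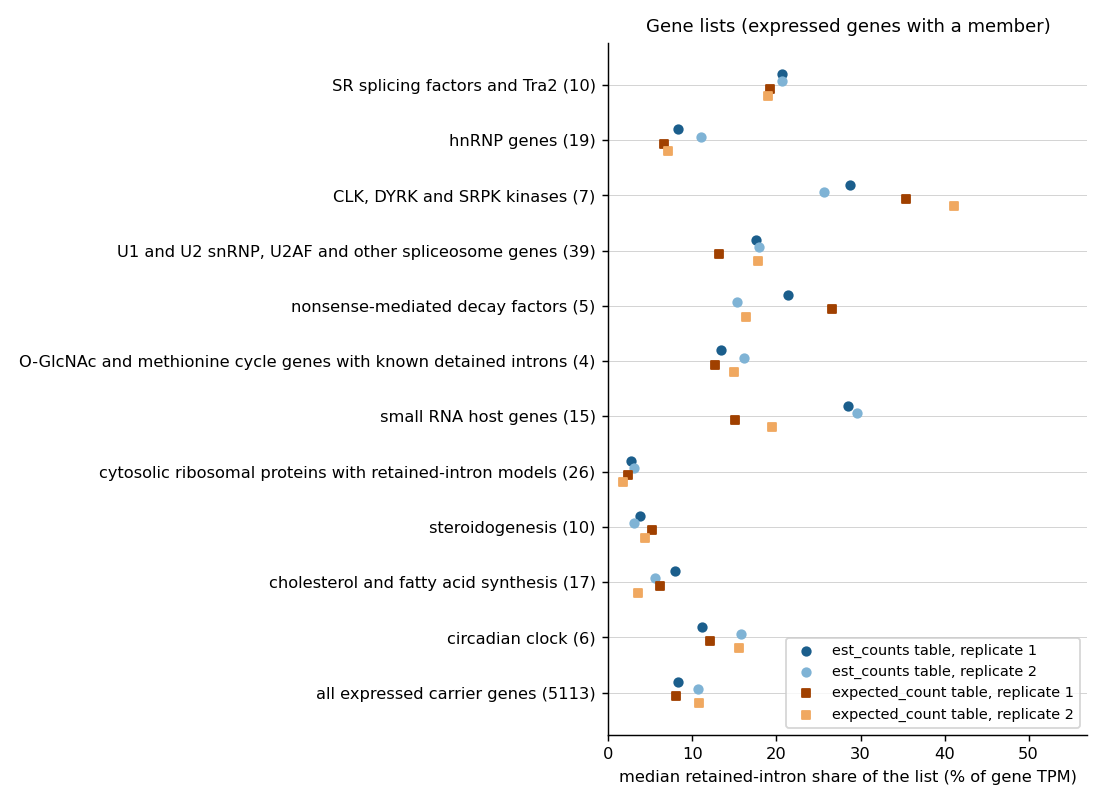
Median retained-intron share of each gene list with at least 3 expressed carrier genes, in percent of gene TPM, for each table and replicate; the number of genes is in brackets. The kinase list lies between 25.6% and 41.1%, all expressed carrier genes between 7.99% and 10.8% and the ribosomal protein list between 1.77% and 3.04%. That list leaves out Rps27, Rps20, Rps16 and other ribosomal protein genes of extreme share.

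SR proteins, which bind exons and recruit the spliceosome, had a list median of 20.7% and 20.6%, and 19.2% and 19.0% in the expected_count table, over 10 genes. Srsf11 had the highest shares of the list in both tables, with 51.7% and 56.3%, and 62.6% and 72.4%. Srsf5 had 24.2% and 15.3%, and 25.9% and 15.1%, so its share was higher in replicate 1 in both tables, against the direction of most genes. Its main member Srsf5-212, which contains an intron of 1229 bases, had 2266 and 1343 counts. Srsf2 had 19.8% and 21.2%, and 22.6% and 19.6%, and Srsf6 had 21.6% and 18.7%, and 20% and 16.7%. In these last genes the difference between libraries was under 4 points. Only Srsf11 of the 10 exceeded 20% in all 4, against 14.2% of all genes.

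Of 39 spliceosome genes, 35.9% exceeded 20% in all 4, and the list median was 17.6% and 17.9%, and 13.2% and 17.8%. Snrnp70, the U1 protein that marks the 5′ splice site, had 34.7% and 35.1%, and 41.5% and 45.4%. Rbm39, a splicing factor related to U2AF, had 31.3% and 36.5%, and 32.4% and 36.1%. Rbm5 had 41.8% and 50.8%, and 40.6% and 48.7%, led by Rbm5-219, a transcript of 6321 bases and 23 exons that contains 3 complete introns and held 1325 and 1289 counts. The 19 hnRNP genes, which bind nascent RNA, had a median near that of all genes, with 8.32% and 11%, and 6.67% and 7.09%. Hnrnpl was above it, with 21.5% and 29.6%, and 21% and 30.3%.

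Other regulatory groups were mixed. Ogt, the O-GlcNAc transferase known to be controlled through a detained intron, had 29.6% and 36.2%, and 29.2% and 38.2%. Its member Ogt-204 had 1285 and 1603 counts and holds whole an intron of 107 bases that does not lie between coding exons. Whether the share of Ogt reflects the known detained intron was not tested. Mat2a, which makes S-adenosylmethionine, had 15% and 18.5%, and 12.9% and 14.9%. The median of that list of 4 genes was 13.4% and 16.1%, and 12.7% and 15%. Of 5 nonsense-mediated decay factors, which degrade many intron-holding RNAs, Smg5 had 23.1% and 42.9%, and 27.8% and 40.5%. The list median was 21.4% and 15.3%, and 26.6% and 16.4%. Among 15 hosts of small RNAs the median was 28.5% and 29.6%, but 15.1% and 19.5% in the expected_count table. Snhg1, a noncoding snoRNA host, had 73.7% and 82.8%, and 41.0% and 42.7%. Of 6 clock genes, Nr1d2, a heme-binding repressor, had 13.9% and 30.6%, and 22.6% and 38.0%, and the list median was 11.1% and 15.8%, and 12.1% and 15.5%. Of 2 immediate early genes, Dusp1, a phosphatase of MAP kinases, had 28.3% and 33.1%, and 24.5% and 31.1%, and the median was 25% and 29.9%, and 17.9% and 25.6%.

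Genes of steroid synthesis in the adrenal cortex mostly had shares below the median of all carriers (8.29% and 10.7%, and 7.99% and 10.8% in the expected_count table). Of 21 steroidogenesis genes, 11 have a member and 10 of these were expressed enough, with a median of 3.82% and 3.10%, and 5.17% and 4.40% in the expected_count table, and 0 of 10 exceeded 20% in all 4, against 14.2% of all carriers. Cyp11a1, the side-chain cleavage enzyme, had 1.03% and 0.917%, and 1.13% and 1.00%. At its gene level of 4365 and 3095 TPM that still meant 3490.1 and 1809 counts on Cyp11a1-204, a member of 3439 bases with a complete intron. Cyp21a1, the 21-hydroxylase, had 1.14% and 1.20%, and 1.92% and 1.92%. Nr5a1, the steroidogenic transcription factor SF-1, had 5.48% and 6.50%, and 5.43% and 6.30%. Soat1, which esterifies cholesterol for storage, was the highest of the list with 19.9% and 22.7%, and 25.1% and 29.7%, and its members stood at 135 and 128 TPM in the est_counts table.

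Scarb1, the HDL receptor that takes up cholesterol esters (chr5:125277087-125341094, minus strand, mm10), was an exception between the libraries. Its members had 5308 counts in replicate 1 and 214 in replicate 2, and their TPM was 94.0 and 4.70, while the gene stood at 3118 and 1763 TPM. The share was 3.01% and 0.267%, and 5.07% and 0.911% in the expected_count table. Scarb1-207, a transcript of 3093 bases with both ends inside introns, stood at 44.6 and 1.66 TPM in the est_counts table. In the expected_count table it stood at 24.1 and 0.570 TPM, where the authors' intervals ran from 22.7 to 24.7 and from 0.425 to 0.730. Scarb1-209 stood at 39.3 and 1.70 TPM and Scarb1-211 at 10 and 1.33 TPM, so all 3 were lower in replicate 2. The coding transcript Scarb1-201 had 1989.9 and 1381 TPM, and the processed transcript Scarb1-206 had 347 and 111 TPM.

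Genes of cholesterol and fatty acid synthesis had a median of 7.88% and 5.50%, and 6.11% and 3.56%, over 17 genes, 13 of which were lower in replicate 2 in the est_counts table and 11 in the expected_count table. Of all carriers, 1443 and 1369 were lower in replicate 2 in these tables, and 3528 and 3704 were higher. Whether the list differs from other genes in this was not tested. Fasn, the fatty acid synthase, had 15.6% and 14.8%, and 22.8% and 30.1%. Lss, lanosterol synthase, had 59.9% and 64.9%, and 43.0% and 35.1%, and Fdft1, squalene synthase, 33.1% and 42.5%, and 21.9% and 33.8%. Ribosomal proteins as a list of 26 genes had a median of 2.74% and 3.04%, and 2.36% and 1.77%. This list does not include Rps27, Rps20, Rps16, Rpl37a, Rpl31, Rps25 or Rps13. Its median therefore does not cover most of the extreme ribosomal values above. Of chromaffin cell genes 2 could be read, Chga, a granule protein, with 3.05% and 1.5%, and 1.91% and 1.14%, and Slc18a1, a vesicular monoamine transporter, with 9.13% and 18.7%, and 8.27% and 17.5%. The lists of other tissues had 4 such genes in all. These were Cela1 of the pancreas (0.803% and 0.144%, and 0 and 0.686%), Trf of the liver (15.5% and 14.4%, and 42.9% and 38.7%), and Fabp4 and Lpl of fat, between 0.806% and 5.15%.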

How the data were processed

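Total RNA of 2 adrenal libraries (1 group) was analysed. Transcript tables were deposited on mm10 and GENCODE M21. The authors deposited estimated counts from the reads (est_counts) and expected counts from a transcriptome alignment (expected_count), per the file headers. The deposited TPM values sum to the same total in each table, and bounds of their TPM intervals were deposited as well. Which programs counted the reads, and with which strand setting, was not stated in these sources. Library kits are per the labels' protocols.

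Members were taken by biotype and joined to the M21 annotation. The est_counts table was the main one. Gene TPM is the sum over transcripts, and genes needed at least 10 in both libraries. With 1 group of 2, no test was run. Fixed sizes were used instead, a share of 50% or more, a difference of 10 points and a 2-fold ratio of TPM plus 0.1 after scaling over nuclear protein-coding genes, at a mean of at least 1 TPM. Counts carry no molecular identifiers and cover sampling of reads only.

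The rule for named genes took the 15 highest by retained-intron TPM, the 15 highest by share, the 6 largest differences between libraries and between tables, and up to 4 genes of each list. Some genes the rule takes are not reported here. The members and lists were chosen with earlier results of these data known. Genes shown from the both-tables counts, from the 87 genes and the printed introns were chosen after their values were seen. An intron counted as held when all its bases, at least 50, lay inside an exon of the member. The share computation was tested on simulated data. Alternatives were the other table, counts for TPM, other minimums, pseudocounts and point thresholds, gene and transcript subsets, and each replicate left out. A further 4 alternatives were added once the values had been seen. 95 transcripts listed only in the expected_count table were left out. Figures were drawn with matplotlib 3.10.9, and values computed with scipy 1.17.1, pandas 2.3.3 and numpy 2.4.6 under Python 3.11.15.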

Additional observations from a re-analysis of the deposited data

How the results depend on the processing

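No paired analysis was possible because the series has 1 group of 2 libraries. The summed share was 13.8% and the median gene share 9.49% as means of both libraries, with 177 genes at 50% or more and 512 with a difference of 10 points. The expected_count table, with its own gene minimum, gave 11.2%, 96 genes and 229 genes. That minimum left fewer genes, since only 3177 of the 5113 genes reached 10 TPM in both tables. Over the same genes as the est_counts table, a setting added after seeing the data, its summed share was 11.7%, with 156 and 515 genes. Shares of counts gave 6.58%, a median of 4.68%, 109 genes and 177 genes. A minimum of 1 TPM gave 278 and 1276 genes, and a minimum of 50 TPM a median of 6.19%, 63 and 59 genes. Without overlapping genes there were 68 and 208 genes, over fewer genes. A difference of 20 points was found in 48 genes. Of the other settings added after seeing the data, members with a complete intron only, over fewer genes, gave 9.03%, 5.37%, 42 and 100 genes, and genes at 10 TPM in both tables gave 114 and 204 genes. The 3331 members with a 2-fold ratio became 1919 with a pseudocount of 1, 472 at a mean of 5 TPM, 6812 at a mean above 0 and 1999 with TPM as deposited. Leaving out each replicate gave summed shares from 13.2% to 14.4%, medians from 8.29% to 10.7% and 214 to 248 genes. Of the shares of 83 named genes, 54 moved by more than the spread between libraries in the expected_count table and 65 with counts. The cause of these moves was not tested. With 4.05 to 31.2 counts, shares of low genes such as Med6 and Tspan17 are at the limit of this depth.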
